A study of Rattus norvegicus with 79 samples.

Results

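The myelin genes of the rat CA1 field were followed through 13 probe sets of 7 genes, out of 8799 probe sets on the array. They are all the probe sets that the platform's probe-to-gene annotation assigns to Mbp, Mobp, Mag, Mal, Mog, Cnp or Gjb1. They are 7 of 4736 genes that the annotation names through a probe set of 1 symbol. Of these 13, 11 were among the 5244 probe sets tested. The Mag probe set M22357_at and the Mobp probe set D28110_g_at were too dim for the tests, which left out the lower 40% by mean signal.

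Messenger RNA came from the CA1 cell layer of the hippocampus of male Fisher-344 rats, taken with a 300 µm punch 24 hours after the last trial in a water maze, with 1 array per animal and 79 arrays in all. The young animals were 3 months of age and the aged ones 24. Treatment was confinement to the home cage, swimming with no platform present (yoked), swimming to a platform in view (visible), or finding one under the surface from memory (hidden). There were 3 young cage, 6 young yoked, 4 young visible and 6 young hidden arrays, and 5 aged cage, 8 aged yoked, 8 aged visible, 13 aged hidden unimpaired and 10 aged hidden impaired arrays, where impaired refers to learning. Another 16 aged hidden arrays carry a B in place of these letters, which the labels do not explain. No genetic alteration or drug is named for any group, and all RNA went through 2 rounds of amplification.

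Myelin is the stack of membrane that oligodendrocytes wrap around axons in the brain. Its compact layers are held together by basic proteins at the inner membrane faces, while surface proteins sit at the contact with the axon and on the outermost layer. The transcription factor MYRF switches on many of these genes as oligodendrocytes mature. In the hippocampus myelinated fibres run mainly above and below the pyramidal cell layer, so a punch of that layer can hold varying amounts of them. In tissue RNA, fewer oligodendrocytes and less myelin RNA per oligodendrocyte cannot be told apart.

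The arrays were not of one quality. The median Spearman correlation of an array with the others lay between 0.223 and 0.940, and 14 of 79 arrays were under 0.85, among them 2 of 3 young cage, 2 of 4 young visible, 4 of 8 aged visible and 2 of 10 aged impaired arrays. As a measure of how far RNA was shortened towards its 3′ end, control probe sets for the 3′ end were divided by those for the 5′ end. In log2 units this was 1.07 ± 1.39 (SD, n = 3) in young cage rats and 3.70 ± 0.93 (SD, n = 5) in aged cage rats. The results on which these arrays bear are given with and without the 14.

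Promoter sequences are shown because a MYRF probe set was the one whose signal followed the members most closely, as described further on. RefSeq windows of the GRCr8 build, from 250 bases before to 50 after the gene start, were at hand for 6 of the 7 genes. The 7-base motif CTGGCAC, a form of the sequence MYRF is known to bind in rodents, was searched on both strands, where the other strand reads GTGCCAG. It was present in 3 of the 6 genes, against 4.75% of 33469 promoters of the same length. The matches are letters in a window and do not show binding. The 3 promoters are printed 5′ to 3′ with the motif in capitals.
Mag, chr1:95290995-95291294, minus strand: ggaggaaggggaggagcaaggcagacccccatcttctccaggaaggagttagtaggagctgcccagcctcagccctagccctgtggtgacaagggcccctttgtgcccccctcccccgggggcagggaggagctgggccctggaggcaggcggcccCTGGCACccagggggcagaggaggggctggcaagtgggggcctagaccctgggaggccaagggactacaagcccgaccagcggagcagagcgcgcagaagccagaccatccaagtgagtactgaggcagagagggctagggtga
Mal, chr3:135341374-135341673, minus strand: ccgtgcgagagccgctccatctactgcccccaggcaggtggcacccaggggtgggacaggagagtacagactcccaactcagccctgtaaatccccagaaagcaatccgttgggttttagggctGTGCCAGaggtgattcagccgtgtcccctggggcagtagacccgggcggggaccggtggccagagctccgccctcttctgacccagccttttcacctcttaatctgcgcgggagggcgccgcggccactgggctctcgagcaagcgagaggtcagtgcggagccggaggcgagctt
Cnp, chr10:86011254-86011553, plus strand: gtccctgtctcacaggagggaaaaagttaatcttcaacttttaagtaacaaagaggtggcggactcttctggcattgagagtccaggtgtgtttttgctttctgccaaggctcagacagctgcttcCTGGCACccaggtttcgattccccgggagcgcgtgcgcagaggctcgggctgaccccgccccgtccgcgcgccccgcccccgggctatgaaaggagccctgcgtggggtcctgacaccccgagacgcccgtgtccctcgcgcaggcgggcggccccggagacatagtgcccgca
The motif began 94 bases before the gene start in Mag, 126 in Mal and 124 in Cnp.

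The compact myelin genes were the most variable members. Mbp encodes myelin basic protein, which binds the inner faces of the membrane together, and lies on chromosome 18. Its probe set K00512_at read 58.8, 98.6 and 150.1 on the 3 young cage arrays. In young yoked rats the lowest, median and highest signals were 164.0, 2074.8 and 6446.7, and in young hidden rats 803.0, 3623.3 and 8623.5. All young cage arrays thus lay below every young yoked and young hidden array. The 4 young visible arrays read 75.8, 471.4, 2084.1 and 3123.6, so a single animal of that group reached down to the young cage range.

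Aged arrays were mostly high for Mbp. The 5 aged cage arrays read 368.1, 863.3, 3408.3, 9608.2 and 13598.1. The lowest, median and highest signals were 197.5, 5134.0 and 14555.3 in aged yoked rats, 46.1, 2616.4 and 5244.7 in aged visible rats, 1995.3, 4821.6 and 7845.8 in unimpaired rats, 156.1, 3204.1 and 5886.9 in impaired rats and 749.1, 3015.6 and 7080.2 in B rats. The unimpaired and B groups therefore had no very low array, while each of the aged yoked, visible and impaired groups had 1 or more. Those very low values lay on arrays under 0.85 in correlation. Without such arrays the lowest signals were 3619.5 in aged yoked, 1912.9 in aged visible and 1627.8 in impaired rats. They were 1995.3 in unimpaired and 749.1 in B rats. On the log2(signal + 15) scale the group means ran from 6.80 ± 0.58 (SD, n = 3) in young cage to 12.18 ± 0.59 (SD, n = 13) in unimpaired rats. Of the 9 gaps between neighbours in this order, 1 was wider than the larger SD of the pair, that between young visible and young cage rats. The SD within groups was 1.52 on the log2 scale, larger than that of 99.8% of tested probe sets.

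Mobp, on chromosome 8, encodes myelin-associated oligodendrocytic basic protein, a small basic protein of compact central myelin. It had 4 probe sets. D28111_at read 87.2, 186.5 and 420.2 in young cage rats and 952.3, 1104.9, 1530.6, 2494.9 and 2846.6 in aged cage rats, with no overlap. In the other young groups its medians were 1104.1 in yoked and 1602.2 in hidden rats, and the young visible arrays read 114.9, 593.9, 1304.1 and 1809.8. In the aged groups its medians were 1758.6 in yoked, 1106.2 in visible, 1334.4 in unimpaired, 1155.8 in impaired and 1113.6 in B rats. Outside the young cage group the medians thus lay close together, within wide ranges that reached down to 39 on an aged yoked array.

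Young cage rats also had the lowest mean at D28111_g_at and D28110_at, but not at D28110_g_at. D28111_g_at read 1274.7, 2667.5 and 4746.4 in young cage rats and 4252.4, 5644.8, 6211.6, 9496.4 and 9612.2 in aged cage rats, so that these groups overlapped. D28110_at read 58.1, 163.2 and 198.5 in young cage rats, below the 440.2 to 701.1 of aged cage rats and the 392.5 to 814.5 of young hidden rats. D28110_g_at was dim, with group medians between 10 in young visible and 75.1 in aged cage rats and single arrays as high as 615.4.

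Cnp, on chromosome 10, encodes the phosphodiesterase CNPase of the non-compact, cytoplasm-filled parts of myelin. Its probe set L16532_at read 562.7, 572.6 and 902.4 in young cage rats and 933.0, 1071.0, 1378.7, 1972.6 and 2178.3 in aged cage rats. The groups did not overlap, although the highest young array lay just under the lowest aged one. Of the 3 young cage arrays 2 were under 0.85 in correlation. The share of all probe sets without overlap between these groups is not given here, for Cnp or the other members. The group medians elsewhere ran from 1054.5 in impaired to 1617.1 in young hidden rats, and log2 means from 9.40 ± 0.38 (SD, n = 3) in young cage to 10.63 ± 0.56 (SD, n = 6) in young hidden rats. No gap between neighbouring groups exceeded the larger of their SDs.

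Mag and Mog encode surface proteins of the myelin sheath. Myelin-associated glycoprotein, from Mag on chromosome 1, sits on the innermost layer facing the axon. Its probe set M22357_g_at was the steadiest member, with an SD within groups of 0.46 on the log2 scale, larger than that of only 7.9% of tested probe sets. It read 666.8, 1082.9 and 1252.2 in young cage rats and 531.5, 623.9, 662.9, 913.0 and 957.5 in aged cage rats. Its lowest, median and highest signals were 860.0, 1001.4 and 1879.0 in aged yoked rats and 374.1, 745.5 and 967.1 in unimpaired rats. The second Mag probe set, X06554cds_s_at, had medians of 757.0 in aged yoked and 670.8 in unimpaired rats and read 633.3, 1370.6 and 1691.7 in young cage rats. The dim M22357_at stayed at a median of 16.6 or less in every group and exceeded 100 on 3 arrays, all of them under 0.85 in correlation.

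Myelin oligodendrocyte glycoprotein, from Mog on chromosome 20, lies on the outermost layer and is a known target of autoimmunity. Its probe set M99485_at read 28.4, 256.7 and 401.0 in young cage rats and 313.8, 399.0, 442.9, 485.5 and 556.6 in aged cage rats. Elsewhere its medians ran from 349.8 in impaired to 632.6 in aged yoked rats. The other probe set, L21995_s_at, had its highest mean in young hidden rats, where the lowest, median and highest signals were 182.4, 269.4 and 1016.2. In young yoked rats these were 72.9, 120.9 and 266.6, in unimpaired rats 45.3, 114.9 and 269.3, and in impaired rats 54.3, 157.4 and 621.4. The young hidden range thus overlapped each of these ranges. Its signal of 1016.2 lay on an array under 0.85 in correlation, and the highest of the other young hidden arrays was 408.1. Without low arrays the young hidden log2 mean was 8.11 ± 0.42 (SD, n = 5), next to 8.10 ± 0.61 (SD, n = 7) in aged yoked rats.

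Mal and Gjb1 encode membrane proteins of other kinds. Mal, on chromosome 3, gives a proteolipid of lipid-rich membrane domains that takes part in sorting myelin proteins. Its probe set U31367_at had its highest means in yoked rats of both ages, with lowest, median and highest signals of 665.6, 925.5 and 1096.2 in young and 579.6, 800.2 and 1252.6 in aged yoked rats. The aged cage arrays read 292.0, 325.5, 443.4, 476.4 and 664.8, and the young cage arrays 450.3, 623.9 and 823.1. The lowest, median and highest were 249.8, 475.7 and 1085.8 in unimpaired rats, 300.7, 437.6 and 756.3 in impaired rats and 172.9, 410.2 and 1090.1 in aged visible rats, so these groups centred lower than yoked rats while their ranges overlapped.

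Gjb1, on the X chromosome, encodes connexin 32, a gap junction protein found in oligodendrocytes. Its probe set X04070_at read 224.9, 372.8 and 1161.9 in young cage rats and 55.0, 105.7, 222.8, 262.5 and 270.3 in aged cage rats, with some overlap. Its medians were 294.2 in aged yoked, 406.8 in aged visible, 241.6 in unimpaired, 206.6 in impaired and 313.2 in B rats. The impaired group was the tightest, from 159.3 to 257.1. Young visible rats read 313.8, 412.0, 493.7 and 521.0, and the young hidden median was 386.6.

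**Figure D1:**
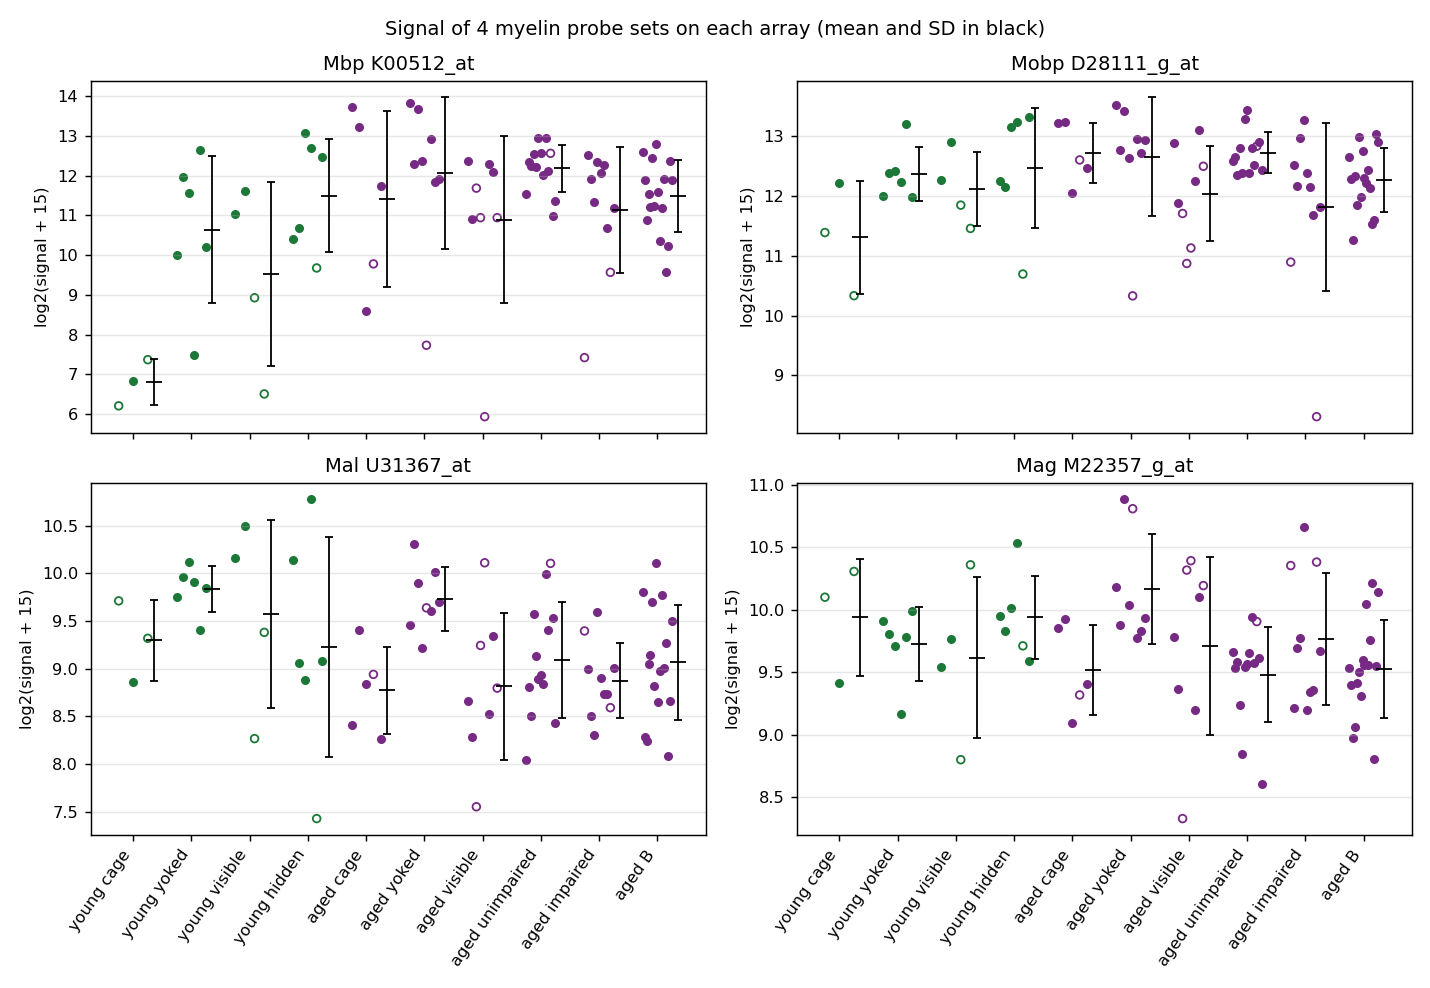
Signal of 4 member probe sets on each of the 79 arrays, as log2(signal + 15), by group, with young rats in green and aged rats in purple; open circles are the 14 arrays of correlation under 0.85, and black marks give each group's mean and SD. Mbp is lowest in young cage rats, at a mean of 6.80. Over all arrays the mean of Mal is highest in the yoked groups, at 9.83 in young and 9.73 in aged rats. Without the open circles it is highest in young visible rats, at 10.33 on 2 arrays.

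The first comparison asked whether aged and young rats differed, with treatment as a second factor and 63 arrays. None of the 11 members passed an adjusted p of 0.05 in limma, where 5.13% of all tested probe sets did. At an unadjusted p under 0.05 there were 2, Mbp and Gjb1, against 20.8% of all. Mbp was higher in aged rats by 1.44 ± 0.46 (SE) on the log2 scale, with an adjusted p of 0.0502, and 35 of 44 aged rats exceeded the young mean for their treatment. Gjb1 had a difference of -0.38 ± 0.19 (SE, adjusted p = 0.23) and lay below the young mean in 34 of 44. Among the others, Mobp D28111_at had 0.58 ± 0.30 and Mal -0.35 ± 0.18, and the remaining 7 lay between -0.21 and 0.29. The median over the members was -0.05, the same as the -0.05 of all tested probe sets to 2 decimals.

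Both ends of the age comparison moved with array quality. Without the 14 arrays of low correlation, Mbp rose with age by 1.28 ± 0.39 (adjusted p = 0.021) and Mal fell by 0.55 ± 0.17 (adjusted p = 0.022), while 13.9% of all probe sets passed. Mal passed here while its difference over all 63 arrays had an adjusted p of 0.24. Leaving out single arrays brought the adjusted p of Mbp to between 0.0132 and 0.113, and it passed on 15 of 63 omissions: young yoked 23, 24 and 59, young visible 28 and 29, young hidden 37, 38 and 40, aged cage 98, aged yoked 63, aged visible 67 and 68, and impaired 8, 56 and 83. The difference itself stayed between 1.26 and 1.61.

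Within cage controls the age difference was wide. Of the 11 members 5 passed, 4 of them higher in aged rats and 1 lower, where 17% of all tested probe sets passed. Mbp rose by 4.61 ± 1.13 (SE) on the log2 scale, with an adjusted p of 0.0037. Mobp rose by 2.98 ± 0.74 at D28111_at (adjusted p = 0.0039) and by 2.03 ± 0.57 at D28110_at (adjusted p = 0.010). Mog rose by 1.40 ± 0.44 at M99485_at and Gjb1 fell by 1.46 ± 0.46, each with an adjusted p of 0.020. The third tested Mobp probe set had 1.40 ± 0.64 and Cnp 1.09 ± 0.50, both with an adjusted p of 0.12. Mag had -0.42 ± 0.37 and -0.93 ± 0.48, Mal -0.52 ± 0.46 and the other Mog probe set 0.46 ± 0.56.

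This comparison rests on 3 young arrays, of which animals 70 and 76 were under 0.85 in correlation. Without the low arrays, which left 1 young and 4 aged cage arrays, Mbp was at 4.99 ± 1.17 and Mobp D28111_at at 1.94 ± 0.60. Cnp was at 1.42 ± 0.46 and Gjb1 at -0.33 ± 0.55. The spread of the lone young array is then assumed to be like that of the other groups. Without animal 76 alone, Gjb1 was at -0.81 (adjusted p = 0.33), Mobp D28110_at at 1.56 (0.11) and Mog M99485_at at 0.41 (0.64). Without aged cage animal 98, Gjb1 was at -1.13 (0.084), and without impaired animal 83, Mobp D28111_g_at passed at 1.40 (0.045). With the 3′/5′ ratio in the model no member passed, Mbp was at 2.78 ± 1.09 (0.16) and Mobp D28111_at at 1.39 ± 0.63 (0.24). The share of all probe sets that passed in that model is not given here, so the loss cannot be read as particular to the members. The ratio differed between these groups as given above, and its part in the result was not tested further.

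Markers of other cells were read beside the cage comparison. Of 15 astrocyte probe sets 4 rose, with a median of 0.82, and their summed signal was 11212 to 35753 in young cage and 38320 to 50013 in aged cage rats. None of 7 CA1 pyramidal neuron probe sets passed, with a median of 0.70 and sums of 19612 to 34775 and 27965 to 65981. Of 7 interneuron probe sets 1 rose and 2 fell, of 6 microglial ones 1 rose, and none passed among 4 endothelial and mural, 3 choroid plexus and ependymal and 2 oligodendrocyte precursor probe sets. No Schwann cell marker was among the tested probe sets. The members' own summed signal was 7431 to 8331 in young cage and 8977 to 31079 in aged cage rats. The part of these cells in the members' differences was not tested.

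In the other treatments no member passed for age. In yoked rats, where 0% of all probe sets passed, 9 of 11 members were higher in aged rats, with a median of 0.32. Of all probe sets 44.5% were lower, with a median of 0.06. Mbp was at 1.43 ± 0.84 and Mog L21995_s_at at 0.94 ± 0.41 (unadjusted p = 0.026), the only member under 0.05 where 7.8% of all were. Without the low arrays, of which this contrast has aged yoked animal 63, Mbp rose by 2.05 ± 0.58 (adjusted p = 0.025). It was then 1 of 11 members called. The 0% above belongs to the fit over all arrays, and the share of all probe sets called without the low arrays is not given here. In the same fit 8 of 15 astrocyte probe sets rose, with a median of 0.81. So did 2 of 27 probe sets from the list of other oligodendrocyte genes described further on. In visible platform rats, where 0.0381% of all passed, Mbp was at 1.37 ± 0.95 and Mal at -0.76 ± 0.39. No member there had an unadjusted p under 0.05, where 6.88% of all did.

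In hidden platform rats 10 of 11 members were lower in aged rats, with a median of -0.33 against -0.05 over all probe sets, 58% of which were lower. None passed, as was the case for 0% of all, and 2 had an unadjusted p under 0.05 against 2.02% of all. Mog L21995_s_at was at -1.15 ± 0.35 (unadjusted p = 0.0018, adjusted p = 0.999), with 22 of 23 aged rats below the young mean. Over all arrays its means were 8.43 in young hidden, 7.18 in unimpaired and 7.41 in impaired rats. Without the low arrays they were 8.11, 7.16 and 7.33. Gjb1 was at -0.63 ± 0.29 with 22 of 23 below, Cnp at -0.58 ± 0.31 with 21 of 23 below and Mobp D28110_at at -0.68 ± 0.36 with 19 of 23 below. Mbp, at 0.23 ± 0.71, was the exception.

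A moderated F then tested the age by treatment interaction. None of the 11 members passed, where 0.305% of all probe sets did, and 6 had an unadjusted p under 0.05, where 14.3% of all did. The lowest adjusted p were 0.079 for Mobp D28110_at and 0.089 for Mog L21995_s_at. Without aged yoked animal 63, Mobp D28110_at passed at an adjusted p of 0.030, and without impaired animal 83 Mog L21995_s_at passed at 0.049. Without all 14 low arrays the young cage group held 1 array, so the interaction then rested in part on a single young cage rat.

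**Figure D2:**
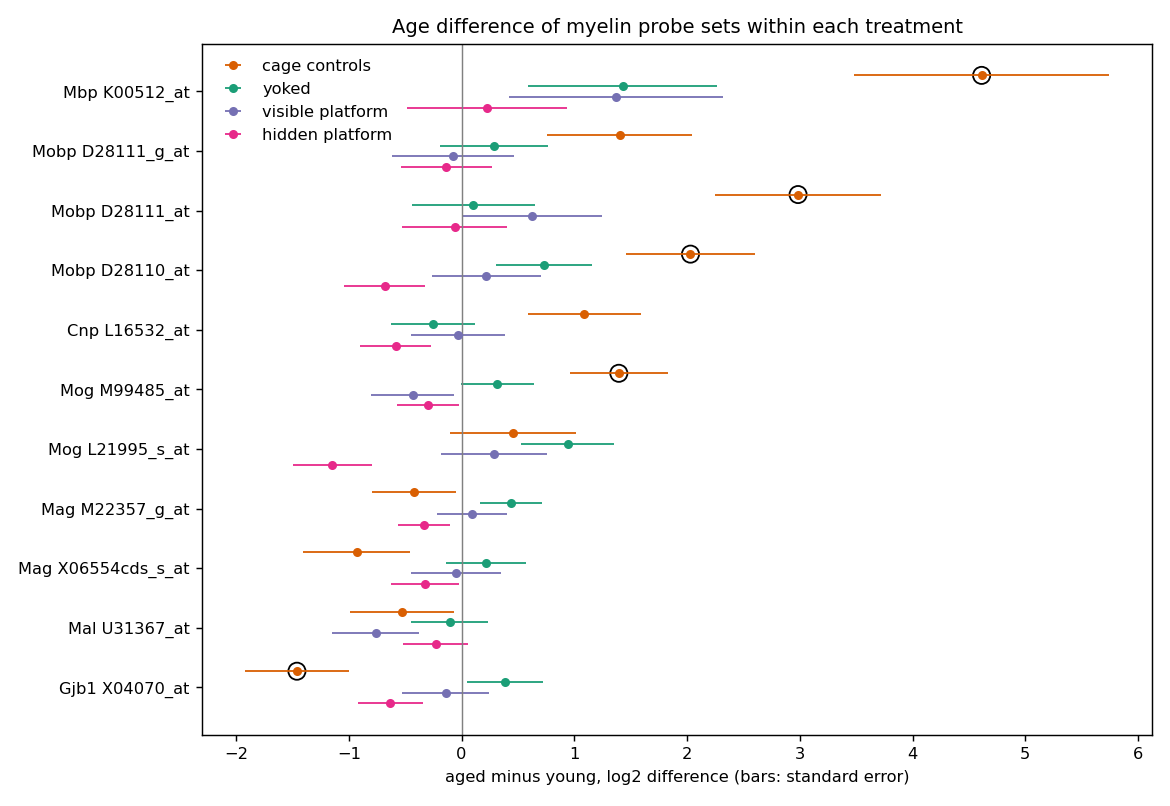
Age difference (aged minus young, log2 scale) of the 11 tested member probe sets in cage, yoked, visible and hidden platform rats, with standard errors; black rings mark an adjusted p under 0.05. Rings occur in cage controls alone, for 5 probe sets, and in hidden platform rats 10 of 11 points lie left of 0.

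Learning against swimming was compared in aged rats. All 11 tested members were lower in hidden platform than in yoked rats, with a median of -0.52, where the median over all probe sets was -0.06 and 58.2% of them were lower. None passed in limma, nor did any of all probe sets (0%). At an unadjusted p under 0.05 there were 4 members, against 2.96% of all. Mal was at -0.75 ± 0.23 (SE, unadjusted p = 0.0021, adjusted p = 0.999) and lay below the yoked mean in 21 of 23 hidden platform rats. Mog L21995_s_at was at -0.76 ± 0.32 with 19 of 23 below, Gjb1 at -0.57 ± 0.25 with 22 of 23 below and Mag M22357_g_at at -0.54 ± 0.22 with 20 of 23 below. Without aged yoked animal 63, the highest of its group for Gjb1 at 1251.1, Gjb1 was at -0.31 ± 0.24 (unadjusted p = 0.20).

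The other 7 probe sets had an unadjusted p over 0.05. Among them were the second probe sets of Mag, X06554cds_s_at at -0.52 ± 0.29, and of Mog, M99485_at at -0.37 ± 0.22. Mobp was at -0.60 ± 0.33, -0.39 ± 0.36 and -0.07 ± 0.40 at its 3 tested probe sets, Mbp at -0.42 ± 0.61 and Cnp at -0.07 ± 0.30. Aged yoked animal 63, of correlation 0.642, was the lowest array of its group for the Mbp, Cnp and 3 tested Mobp probe sets. Without it Mbp was at -1.03, Mobp D28111_at at -0.72 and Cnp at -0.49, none of which passed. Without aged yoked animal 25, Mobp D28111_at was at 0.17 and Cnp at 0.09. Without all low arrays the 11 members were again lower, with a median of -0.56, and 8 had an unadjusted p under 0.05 where 7.04% of all did, with none past the adjusted threshold. Over all arrays the marker medians in this comparison were -0.04 for astrocytes, -0.13 for CA1 pyramidal neurons, -0.12 for microglia and -0.05 for interneurons. Without the low arrays these were -0.15, -0.08, -0.13 and 0.04. Oligodendrocyte precursor markers were at -0.25, endothelial and mural ones at -0.05 and choroid plexus and ependymal ones at -0.04 over all arrays. Without the low arrays these were -0.04, -0.12 and -0.03.

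The aged yoked rats were also compared with the other aged controls, in comparisons that share the same 8 yoked arrays. Against aged cage rats yoked rats had 4 of 11 members lower, near the 38.1% of all probe sets that were lower. None was called where 0.0191% of all were, with Gjb1 at 1.00 ± 0.35, Mal at 0.96 ± 0.32 and Mag M22357_g_at at 0.65 ± 0.30. These 3 had an unadjusted p under 0.05, against 9.06% of all. Without aged yoked animal 63, whose Gjb1 signal of 1251.1 was the highest of the group, Gjb1 was at 0.73 ± 0.32. Visible platform rats against yoked rats had 9 of 11 lower where 51.5% of all were, and none called where 0% of all were. Mal was at -0.91 ± 0.28, Mog M99485_at at -0.74 ± 0.27 and Mog L21995_s_at at -0.81 ± 0.39, the 3 members with an unadjusted p under 0.05 against 4.65% of all. Mbp was at -1.18 ± 0.74 in this comparison, within its spread.

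Hidden platform rats were also set against aged visible and cage rats. Against visible rats 0 members passed, with 0.0191% of all. Gjb1, at -0.78 ± 0.25 (unadjusted p = 0.0033), was the one member with an unadjusted p under 0.05, where 11.4% of all were. The other differences lay between -0.41 and 0.76, the last being Mbp at ± 0.61. Against cage rats 0 members passed, with 0% of all, and none had an unadjusted p under 0.05, where 8.56% of all did. The differences there lay between -0.61 and 0.43.

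**Figure D3:**
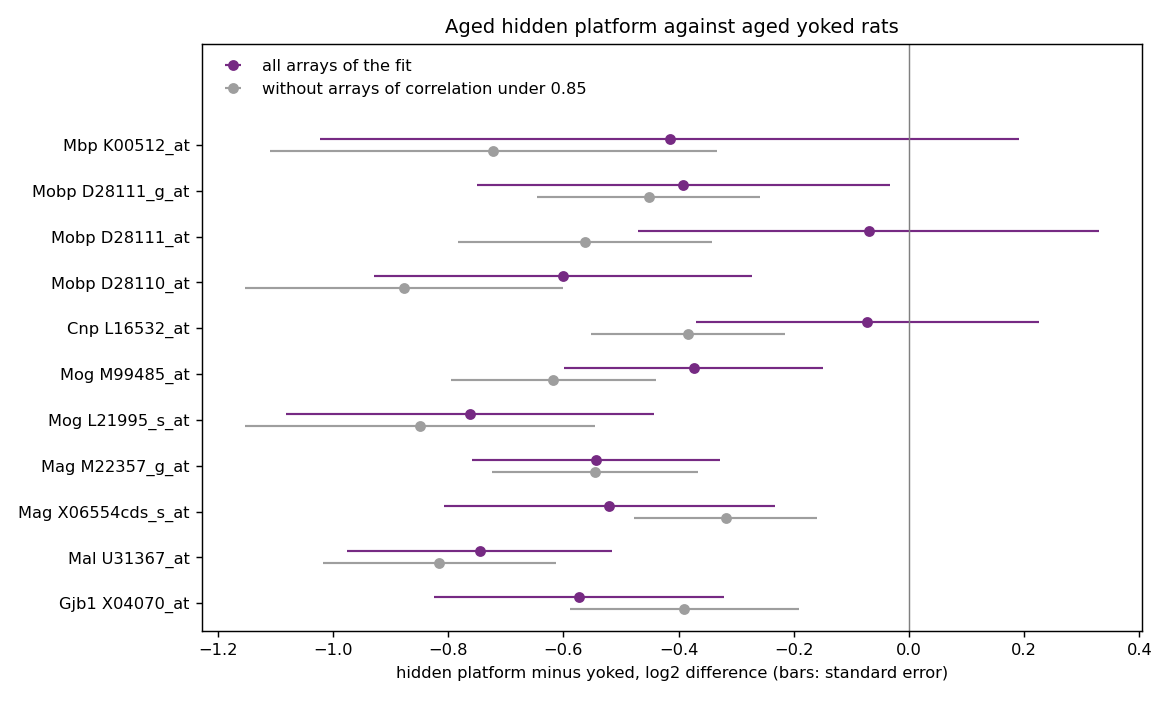
Difference between aged hidden platform and aged yoked rats (log2 scale, with standard errors) for the 11 tested member probe sets, over all arrays of the fit (purple) and without arrays of correlation under 0.85 (grey). All 11 points lie below 0 in both, from -0.07 for Cnp and Mobp D28111_at to -0.76 for Mog L21995_s_at over all arrays.

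In young rats, hidden platform against yoked gave the opposite sign for most members, and no test compared the ages in this contrast. Of 11 members 10 were higher, with a median of 0.24, and none passed where 0% of all did. Of all probe sets 45.5% were lower, with a median of 0.04. Mal was the exception at -0.61 ± 0.44. Mog L21995_s_at was at 1.31 ± 0.43 (unadjusted p = 0.0058) and was the only one with an unadjusted p under 0.05, where 1.77% of all were. Its young hidden mean was 8.43 ± 0.86 (SD, n = 6), and 8.11 ± 0.42 (SD, n = 5) without the low arrays. Young yoked rats were at 7.12 ± 0.72 (SD, n = 6) in both. Under centring of each array on its median, 4 of the 11 were lower and the members' median was 0.09. Against young visible rats none passed, as did 0% of all. Mog L21995_s_at at 1.46 ± 0.48 and Mbp at 1.98 ± 0.92 were the 2 members with an unadjusted p under 0.05, against 5.23% of all. The young visible mean of Mog L21995_s_at was 6.97 ± 0.65 (SD, n = 4), and 7.24 ± 0.89 (SD, n = 2) without the low arrays.

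Young hidden platform against young cage rats shares the 3 young cage arrays with the cage comparison of age. There 3 members rose, where 5.28% of all passed: Mbp by 4.70 ± 1.01 (adjusted p = 0.016), Mobp D28110_at by 2.11 ± 0.51 (0.025) and Mobp D28111_at by 2.64 ± 0.68 (0.031). Cnp was at 1.22 ± 0.39 (0.063) and Mog M99485_at at 1.63 ± 0.50 (0.058). None passed without the low arrays, without young cage animal 70 or 76, with median centring or with the 3′ to 5′ covariate, where Mbp was at 2.69 ± 1.03. Without young hidden animal 37 only Mbp passed, and Mobp D28111_at was at an adjusted p of 0.051 to 0.063 without young hidden animals 3, 38 or 40. Without young visible animal 65 or young hidden animal 39 the members called numbered 5, Cnp being at 0.048 and 0.029.

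Learning ability and the B rats were compared last. Impaired against unimpaired rats had 0 members called, with 0% of all, and 9 of 11 lower with a median of -0.24. Of all probe sets 46.8% were lower, with a median of 0.04. Mobp D28111_g_at was at -0.90 ± 0.37 (unadjusted p = 0.017), the only member under 0.05 where 12.9% of all were, and Mbp was at -1.05 ± 0.62. Without the low arrays, which include impaired animals 8 and 83, these were -0.34 ± 0.20 and -0.36 ± 0.40. B rats against unimpaired rats had 0 called, with 0.0572% of all, and differences between -0.70 and 0.32, none with an unadjusted p under 0.05 where 7.17% of all were.

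B rats against impaired rats had 0 members called, where 12% of all passed. Gjb1 was at 0.61 ± 0.23 with an adjusted p of 0.060, and rose by 0.67 ± 0.19 (0.021) without the low arrays. It also passed without B animal 10 (0.042), unimpaired animal 81 (0.047), aged cage animal 98 (0.0495) or aged yoked animal 63 (0.035), which enter through the shared estimate of the spread or the group mean. Over all 10 groups together 6 members differed, where 25% of all probe sets did: Mbp (adjusted p = 0.00079), Gjb1 (0.0070), Mobp D28111_at (0.022) and D28110_at (0.042), and Mog M99485_at (0.022) and L21995_s_at (0.029). At an unadjusted p under 0.05 there were 7, Mal being the other, against 42.1% of all. Without young cage animal 76 this count of 6 was 3, the probe sets lost being both Mobp ones and Mog M99485_at.

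Probe sets of the same gene were compared for their age difference, array by array. Of 10 pairs from Mag, Mobp and Mog, none differed at an adjusted p under 0.05 in permutation tests with age labels shuffled within treatment (100000 resamples, two-sided). The smallest p was that of Mobp D28111_at minus D28111_g_at, at 0.36 ± 0.18 (SE, p = 0.0588, adjusted p = 0.549). The widest gap was that of the dim Mag M22357_at minus X06554cds_s_at, at 0.40 ± 0.27 (adjusted p = 0.549). The tested Mag probe sets differed by 0.16 ± 0.17 and the Mog ones by -0.14 ± 0.26. By treatment some gaps were wider. In cage rats Mobp was at 2.98 at D28111_at, 2.03 at D28110_at, 1.40 at D28111_g_at and 0.69 at the dim D28110_g_at. Mog L21995_s_at and M99485_at were at 0.46 and 1.40 in cage rats. They were at -1.15 and -0.30 in hidden platform rats, and at 0.94 and 0.32 in yoked rats. These gaps within treatments were not tested.

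Across arrays, with group means removed, Mbp and the Mobp probe sets D28111_at and D28111_g_at varied together. Over 79 arrays Mobp D28111_at and D28111_g_at had Spearman's rho 0.901 and Pearson's r 0.845, and Mbp and Mobp D28111_at had rho 0.826 and r 0.822. The permutation p adjusted over all 78 member pairs was 8.7e-05 for each of these, the smallest that 100000 resamples and this adjustment gave here. Without the 2 arrays farthest from the median, r was 0.856 and 0.786. The other Mobp probe sets followed Mbp less closely, with rho 0.301 and r 0.417 for D28110_at and rho 0.171 and r 0.0715 for the dim D28110_g_at. Cnp followed the same genes, with rho 0.539 and r 0.536 for Mbp and rho 0.523 and r 0.723 for Mobp D28111_g_at. These arrays share their groups' handling and overall quality, so the values describe this set of arrays.

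The tested probe sets of Mag, Mal and Gjb1 had rho between -0.150 and 0.124 with Mbp over 79 arrays. These values moved with the arrays used: on the 65 better arrays Mag M22357_g_at had rho 0.292 and r 0.313 with Mbp, against 0.026 and -0.108 over 79, and Gjb1 had r 0.343 against 0.0047. The dim Mag M22357_at had rho -0.355 with Mbp over 79 arrays and 0.023 on the 65. The Mag probe sets went with each other (rho 0.608, r 0.502), Mal with Mog M99485_at (rho 0.477, r 0.408) and Gjb1 with Mag M22357_g_at (rho 0.419, r 0.460), each with an adjusted permutation p under 0.05. Mag X06554cds_s_at had rho -0.150 with Mbp and -0.241 with Mobp D28111_at, and Gjb1 had 0.033 with Mbp. Over the 5 same-gene pairs of tested probe sets the median rho was 0.520, from 0.296 for Mog to 0.901. Over the 50 different-gene pairs it was 0.233, from -0.241 to 0.826, with 21 past an adjusted permutation p of 0.05. On the 65 arrays of correlation 0.85 or more, the median over different-gene pairs was 0.328 and the lowest -0.116.

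The signal of several members moved with the quality of the array, but not all in the same direction. The median correlation of an array with the others had r 0.778 and rho 0.590 with Mobp D28111_g_at, r 0.544 and rho 0.575 with Mbp and r 0.566 and rho 0.397 with Cnp, over 79 arrays with group means removed. On the 65 better arrays r was 0.211 for Mobp D28111_g_at, 0.557 for Mbp and 0.224 for Cnp. The dim Mag probe set M22357_at ran opposite, with r -0.834 and rho -0.691, and the dim Mobp D28110_g_at had r -0.395 and rho -0.296. Mag M22357_g_at, with r -0.311 and rho -0.269, and Gjb1, with r -0.302 and rho -0.161, also ran opposite. On the 65 arrays their r was -0.074 and 0.374. Mal, both Mog probe sets and Mag X06554cds_s_at had r between -0.163 and 0.067 over 79 arrays. The 3′/5′ ratio, in log2 units, had r 0.549 and rho 0.288 with Mobp D28111_at and r -0.548 and rho -0.460 with Mag X06554cds_s_at, which were -0.104 and -0.051 in r on the 65 arrays. With array correlation, the rho of Gjb1 and the r of Mal, Mog and Mag X06554cds_s_at had an adjusted permutation p over 0.05. Each of the other 79-array values above had an adjusted permutation p under 0.05 over 26 relations. The part of these relations in the members' differences was not tested beyond the fits given.

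**Figure D4:**
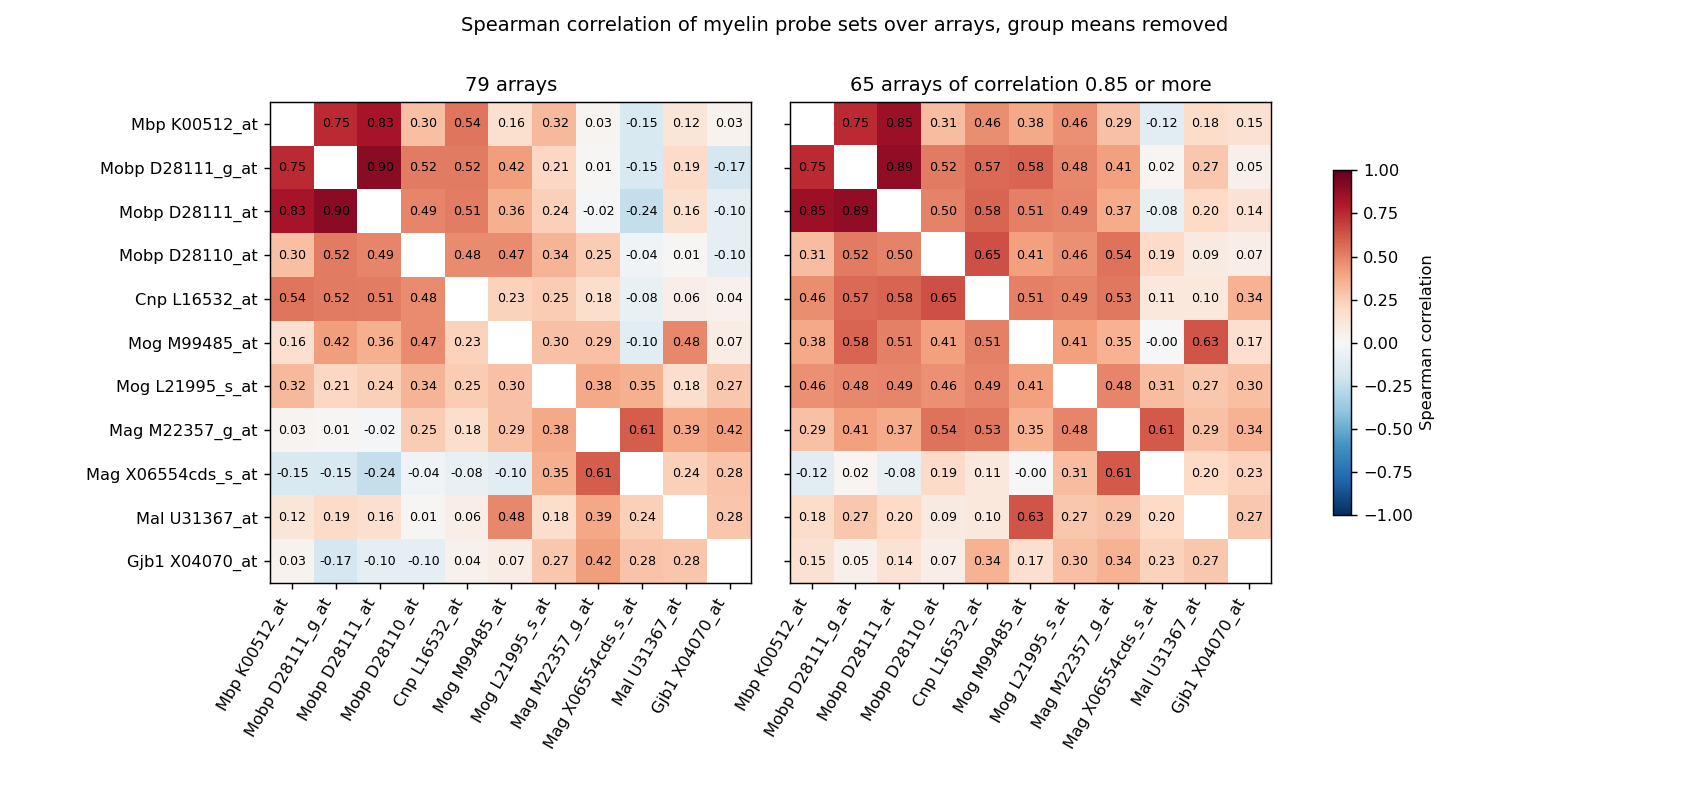
Spearman correlation of each pair of the 11 tested member probe sets over arrays with group means removed, for all 79 arrays (left) and the 65 arrays of correlation 0.85 or more (right). Mbp and the Mobp probe sets D28111_at and D28111_g_at form the block of highest values, up to 0.901, and on the left the values of Mag, Mal and Gjb1 with Mbp lie between -0.150 and 0.124.

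The genes whose signal was most like the members' were sought among 4273 other probe sets with 1 symbol, as the mean rho with the brightest probe set of each of the 7 genes over 79 arrays. The median candidate had 0.0177. The highest were Myrf at 0.344, which encodes the myelin regulator named above, Klk6 at 0.319, which encodes a protease of oligodendrocytes, and Cd82 at 0.315, a tetraspanin. Next came Fxyd1 at 0.312 and 0.292 for its 2 probe sets, Apod at 0.312, Qdpr at 0.294, RT1-CE12 at 0.289, Csrp1 at 0.286 and Tnfsf13 at 0.280. On the 65 better arrays 6 of these 10 probe sets were again among the first 10, with Myrf at 0.457 and Klk6 at 0.450 leading, while Lpar1, Galnt6, Plpp2 and the other Cd82 probe set entered. The 7 leading member probe sets themselves had a median rho of 0.192 with each other.

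Other genes of oligodendrocytes and myelin were read from a list of 47, of which 23 were on the array and 20, with 27 probe sets, were tested. For age 2 of 27 rose and none fell, where 5.13% of all probe sets passed. Apod, which encodes the lipid carrier apolipoprotein D, rose by 0.79 ± 0.21 (adjusted p = 0.018). Qdpr, which encodes dihydropteridine reductase, rose by 0.93 ± 0.28 (0.038) at J03481mRNA_at and was at 0.01 ± 0.20 at its other probe set. The list's median was 0.02. Pllp, which encodes the myelin proteolipid plasmolipin, was at 0.82 ± 0.27 (0.059) and rose by 0.94 ± 0.31 (0.031) without the low arrays.

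In cage controls 4 of 27 rose with age and none fell, where 17% of all probe sets passed. The list's median was 0.13, with 10 of 27 lower, against 1.09 for the members. Those that rose were Apod by 2.58 ± 0.51, Sirt2 by 2.50 ± 0.58, Car2 by 2.01 ± 0.66 at U60578cds_s_at and Qdpr by 1.97 ± 0.70. Sirt2 and Car2 encode a deacetylase and a carbonic anhydrase found in oligodendrocytes. Without the low arrays Sirt2 was at 1.26 ± 0.59 and Car2 at 1.44 ± 0.89, both not called. In young hidden against cage rats 2 of 27 rose, Sirt2 by 2.30 ± 0.65 and Apod by 2.12 ± 0.48, where 5.28% of all probe sets passed. The list's median there was 0.61, and 0.31 without the low arrays, which left 1 young cage array. Against impaired rats, B rats had Sgk1, which encodes a kinase, higher by 0.69 ± 0.24 (adjusted p = 0.049), and at 0.36 ± 0.21 without the low arrays. Over all arrays this was 1 of 27 called, where 12% of all probe sets passed.

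In aged hidden against yoked rats 24 of 27 of these probe sets were lower, with a median of -0.20, and none passed, with 0% of all. Myrf was at -0.62 ± 0.28, Qdpr at -0.62 ± 0.36 at J03481mRNA_at, and Cntn2, which encodes a contactin of the myelinated axon, at -0.61 ± 0.30. In young hidden against yoked rats 6 of 27 were lower, where 45.5% of all probe sets were, with a median of 0.42 and none called. The 2 oligodendrocyte precursor genes, Cspg4 and Pdgfra, which the list also holds, were called in no comparison. Over all 10 groups 5 of the 27 differed, against the 25% of all probe sets given above.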

How the data were processed

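Each array measured 8799 probe sets, 59 of them controls. The deposited values are intensity, 1 linear signal per probe set, which, per the submitters' processing notes, the authors computed with MAS5; the genome build is not given in the sources used here. Trimmed means of 499.98 to 500.0 show that arrays had been scaled alike, and the median signal lay between 98.9 and 347.1. The number of arrays limits the precision. Probe sets were named from the platform annotation: 7018 had 1 symbol, 308 several and 1473 none.

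Groups came from sample titles. Values were tested as log2(signal + 15), which understates the change of dim probe sets, after leaving out controls and the 40% of lowest mean, with limma 3.58.1 in R 4.3.3 (lmFit, eBayes with trend), two-sided, Benjamini-Hochberg over 5244 probe sets, threshold 0.05. Comparisons of age used 63 arrays, those within aged rats 44, those with B rats 60, and those within young rats 19. Hidden aged rats are the mean of the impaired and unimpaired means. p-values measure the spread between animals; 2 rats shared a cage, and cage mates are not identified in the labels used here. Correlations and pairs of probe sets were tested by permutation (Python 3.11.15, scipy 1.17.1).

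Members, gene lists and tests were chosen with earlier results of these data known. All member probe sets were named; of the other oligodendrocyte genes, those past the threshold, otherwise the 3 of smallest p for age; and the 10 probe sets most like the members. Myrf and Cntn2 in the hidden against yoked comparison were named after their values were seen. Alternatives were pseudocounts of 1 and 60, no filter or a 60% filter, quantile normalization, median centring, robust eBayes without trend, array weights, the 3′/5′ ratio as covariate, B counted as hidden, no arrays under 0.85 in correlation, and each array left out. The fits were checked on simulated data.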

Additional observations from a re-analysis of the deposited data

Results flagged for a closer look

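Within groups of 4 to 10 arrays, 17 of 91 tests found the highest or lowest member signal far from the rest by Dixon's 95% criterion, where chance gives about 4.5. Of the 17, 14 lay on arrays of correlation under 0.85. Aged yoked animal 63 (correlation 0.642) was the lowest of its group for Mbp K00512_at at 197.5 (others 3619.5 to 14555.3), Mobp D28111_at at 39 (others from 1286.1), D28111_g_at at 1272.6 and D28110_at at 91.2, and Cnp at 131.4. Impaired animal 83 (correlation 0.223) was lowest for Cnp at 177.9 and Mobp D28111_g_at at 302.2 and highest for Mag M22357_at at 780.5, where the others reached 59.5. Aged visible animal 68 (0.763) was lowest for Mbp at 46.1 and Mobp D28111_at at 240.4. Impaired animal 8 (0.445) was lowest for Mag X06554cds_s_at at 68.

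The dim Mag M22357_at was also high on aged cage animal 99, at 109.0, and young hidden animal 39, at 104.8, and the dim Mobp D28110_g_at on young visible animal 30, at 615.4. The 3 outlying values on arrays of higher correlation were Mag M22357_g_at at 559.6 on young yoked animal 58, and Mobp D28110_g_at at 215.5 and D28111_g_at at 9466.9 on young yoked animal 59.

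For Mag M22357_g_at all 5 aged cage rats lay below the young cage mean, with an age difference of -0.42, and all 8 aged yoked rats lay above the young yoked mean, with 0.44. The difference between these 2 treatments was not tested by itself; the interaction over all 4 treatments had an adjusted p of 0.51 in limma.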

How the results depend on the processing

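No paired analysis was possible because each animal number in the labels belongs to 1 animal and groups share none. The counts of members called moved as follows. For age (0 over all arrays) it was 1 with a pseudocount of 60, a 60% filter, the 3′ to 5′ covariate or B counted as hidden, 2 without the low arrays and 3 with array weights. For age in cage controls (5) it was 8 with weights, 0 with the covariate and 4 with centring. Without the low arrays the young cage group held 1 array. For that reason no count in that setting is given for age in cage controls or for the interaction. For age in yoked rats (0) it was 1 without the low arrays. With weights it was 2 for age in visible and 5 for age in hidden platform rats, and 10 for the interaction. With weights it was also 1 for aged hidden against yoked, 2 for hidden against visible and 2 for visible against yoked rats. Each of these counts with weights was 0 in the fit reported. For young hidden against cage (3) it was 5 with the 60% filter, 0 with median centring, the covariate or without the low arrays, and 6 with weights. For B against impaired (0) it was 1, Gjb1, with no filter, quantile normalization, centring, weights, the covariate or no low arrays. For any of 10 groups (6) it was 2 with quantile normalization, 3 with the covariate, 4 with centring, 5 with no filter or without the low arrays, and 11 with weights. The weights' estimation stopped before converging, and their calls over all probe sets rose too. Outside age, the share of all probe sets called under these alternatives is not given here. The counts with weights and the other alternatives therefore cannot be read as particular to the members. Over all probe sets the 269 calls for age became 1134 with weights, 727 without the low arrays, 450 with B counted as hidden, 99 with quantile normalization and 77 with centring. Leaving out single arrays gave 0 to 1 members for age, 0 to 1 for the interaction, 2 to 6 for age in cage, 0 to 5 for young hidden against cage, 3 to 7 for any of 10 groups, 0 to 1 for B against impaired and 0 elsewhere. Median centring moved the median of all probe sets from 0.04 to -0.28 for impaired against unimpaired, where the members' median was -0.57, and from -0.03 to 0.35 for B against impaired, where it was 0.61. Of 1755 member values under the other alternatives, 38 newly passed and 19 lost the call; 93 differences changed sign, none of them past the threshold on either side. Of the 10 probe sets most like the members, 6 were shared without the low arrays. The cause of these moves was not tested. No member passed for aged hidden against yoked rats in any alternative but weights, where Mal was at -0.80 ± 0.19.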
